A study of Arabis alpina with 2 samples.

Results

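Single-base changes that start from an A or a T, or that swap G and C, were examined where only 1 of 2 sequenced Arabis alpina libraries listed them. Arabis alpina is a perennial relative of Arabidopsis. Members were chosen by variant quality (25 or more), coverage (10 reads or more), a place on chromosomes 1 to 8 and a position that the other list did not hold with any base. The rule gave 765 members among 28952 listed sites, of which 486 were found in the pool only and 279 in the progenitor only. These values chose the members, so their number, quality and lowest depth are a description.

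The pool library came from flower buds of eop055 BC1F2 plants, made by backcrossing a selfed mutant to its progenitor pep1-1, selfing once more and picking plants with the mutant phenotype. The other library came from flower buds of pep1-1 itself. Both carry the pep1-1 mutation in the Pajares accession and were grown in long days, and each group had 1 library. How many plants went into either library is not stated in the sources used here.

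PEP1, the Arabis relative of the Arabidopsis floral repressor FLC, holds back flowering until winter cold has silenced it. In mapping by sequencing, plants sharing a mutant phenotype are pooled, so that the causal change and those linked to it approach an allele frequency of 1 while unlinked changes stay near 0.5. Alkylating mutagens act mainly on guanine and leave G-to-A changes, read as C-to-T on the other strand, which makes those changes, called mutagen-type below, the usual mapping markers. Changes at A or T, and G-C swaps, are not the typical product of such a mutagen. Reads from near-identical copies of a sequence can also map to 1 place, where bases that differ between the copies are listed at intermediate frequency.

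Most sites of these types were common to both lists. Of 5679 such sites on the chromosomes in the pool list, 1244 (21.9%) were unlisted in the progenitor, and of 5455 in the progenitor list, 1021 (18.7%) were unlisted in the pool. The quality minimum removed 746 of the 1244 pool-only sites (59.97%) and 719 of the 1021 progenitor-only sites (70.4%). Just inside it lay C35744524G on chromosome 7, with a quality of 25.02 and 36 of 107 reads in the pool, A20803345C on chromosome 4 (25.5) and T11267528C on chromosome 2 (25.5). Just outside it lay T29806611G on chromosome 8, at 24.99 with 174 of 306 reads, and T14833911G on chromosome 1 and G13892508C on chromosome 2, at 24.5 each. In the progenitor the nearest sites inside were A2270720G and T14140611A on chromosome 2 and A13024638G on chromosome 3, each at 25.5, and T18000188C on chromosome 7, A14132342C and G21122304C on chromosome 2 lay outside at 24.5. A site with few reads or low quality is unlisted too, so unlisted does not mean absent.

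The members were a mix of all 8 substitution types. In the pool, A-to-G had 104 sites, T-to-C 103, A-to-T 72, T-to-A 67, A-to-C 62, T-to-G 40, G-to-C 26 and C-to-G 12. In the progenitor, A-to-G had 71 sites, T-to-C 55, A-to-C 38, T-to-A 35, A-to-T 29, T-to-G 25, and G-to-C and C-to-G 13 each. Transitions, the changes between A and G or T and C, made up 42.6% of pool members (207 of 486) and 45.2% of progenitor members (126 of 279). Pool over progenitor members, the odds ratio was 0.901 (0.663 to 1.23 at 95% confidence; two-sided Fisher's exact test, p = 0.496), so a difference of either direction within that interval remains possible. With no quality minimum the odds ratio was 0.826 and the exact p = 0.0423.

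Changes between A and T made up 28.6% of pool members (95% interval 24.8 to 32.8%), 22.9% of progenitor members (18.4 to 28.2%) and 19.1% of the 4434 shared sites of these types (17.9 to 20.2%). G-C swaps made up 7.82% of pool members (5.75 to 10.6%), 9.32% of progenitor members (6.44 to 13.3%) and 11.1% of shared sites (10.2 to 12.01%). The 4434 shared sites were counted without the quality and coverage minimums that members had to pass, so the sets were filtered differently. Of them, 3942 passed both minimums in the pool and 3901 in the progenitor. The intervals of the pool and progenitor members overlapped for each type, as the plot of substitution types shows.

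**Figure D1:**
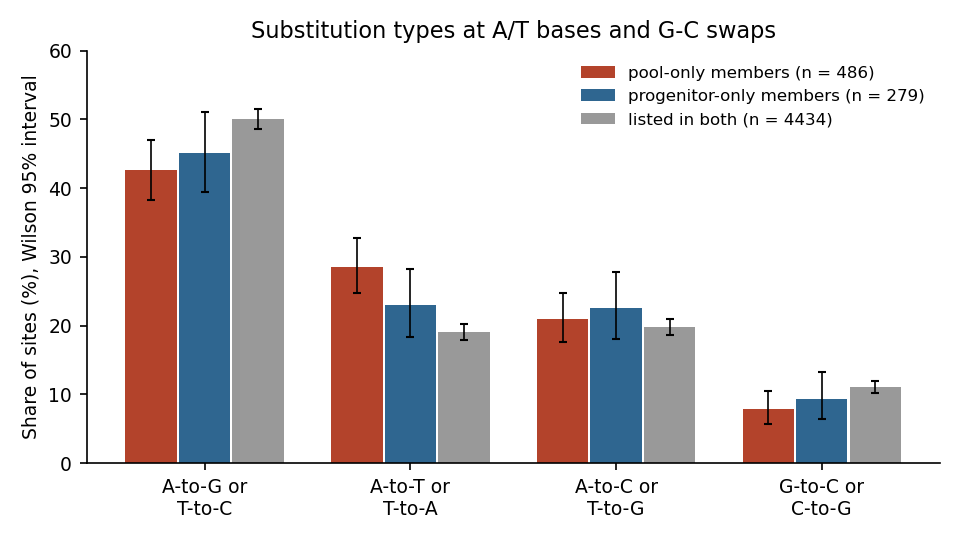
Share of sites (percent, with Wilson 95% intervals) for each complementary pair of substitution types, for pool-only members, progenitor-only members and sites listed in both libraries. Sites listed in both were counted without the quality and coverage minimums. Transitions lead in every set, at 42.6%, 45.2% and 50.05%, and the intervals of the pool-only and progenitor-only members overlap for each type.

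Members stood at intermediate frequency, and their median depth was above that of the other changes found in only 1 library. The median allele frequency of pool members was 0.401, with quartiles of 0.306 and 0.499, and that of progenitor members was 0.419, with quartiles of 0.329 and 0.540. Median coverage was 96.5 reads for pool members (quartiles 44 and 123) and 91 for progenitor members (63 and 131). The pool-only mutagen-type sites had a median of 66 reads and a median frequency of 0.491, and the pool-only G-to-T or C-to-A sites had 39 reads and 0.265. In the progenitor the same classes had medians of 41 reads and 0.370, and of 29 reads and 0.3. The 3541 sites listed in both libraries at 0.4 to 0.6 in each, called shared mid-frequency sites below, had median depths of 126 pool and 130 progenitor reads.

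Variant quality was lower at members than at shared sites, in a comparison not matched for depth or allele frequency. Quality reached 100 at 94 of 486 pool members (19.3%) and 37 of 279 progenitor members (13.3%). Among shared sites of the same types past the same minimums, 65.0% reached it in the pool and 63.2% in the progenitor. These shared sites were deeper, with medians of 127 pool and 130 progenitor reads, at median frequencies of 0.492 and 0.489. Among pool-only mutagen-type sites 74.3% did, against 3.18% of pool-only G-to-T or C-to-A sites. In the progenitor 9.79% of mutagen-type and 1.90% of G-to-T or C-to-A sites did, both below the share of its members. T2969609C on chromosome 8, chosen after its values were seen, had 72 of 159 reads in the pool and a quality of only 26.5.

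Median allele frequency varied with depth. The rule chose members by quality and coverage, and quality can depend on both depth and the share of variant reads. The medians by depth class are therefore a description. Pool members with 10 to 29 reads numbered 85 and had a median frequency of 0.524, of which 28 were transitions. The 179 with 30 to 99 reads had a median of 0.297, and the 204 with 100 to under 300 reads had a median of 0.440, with 127 of them between 0.4 and 0.6. The 18 with 300 reads or more had a median of 0.926. In the progenitor the 4 depth classes held 31, 135, 81 and 32 members, with median frequencies of 0.389, 0.377, 0.426 and 0.988.

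Near-fixed members, at 0.9 or more, were few, 18 in the pool and 25 in the progenitor. All 25 of the progenitor and 10 of the 18 of the pool had 300 reads or more. The deepest pool members were A14238146G on chromosome 2, with 5082 of 5168 reads, and A46586843C, C46586882G and A46586897G on chromosome 8, with 3480, 3312 and 3148 reads. A14981303C on chromosome 6, the fifth deepest, had 723 of 3139 reads (0.230). Of the 18 pool members with 300 reads or more, 8 were below 0.9. At ordinary or low depth the highest pool members were A20803345C on chromosome 4 (35 of 35 reads), A16954107T on chromosome 5 (15 of 15), A12970667G on chromosome 8 (10 of 10) and A21394435C on chromosome 2 (99 of 101), with qualities from 25.5 to 41.5.

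The deepest progenitor members were concentrated in a few places. T13010263A, A13010349C and A13010371C on chromosome 7 had 7143, 6452 and 6177 reads at frequencies from 0.994 to 0.997, and A13002219T and T13002229A on the same chromosome had 6468 and 6723 reads at 0.993 and 0.990. A18635171G and A18635299G on chromosome 6 had 4651 and 1689 reads at 0.997 and 0.994. A32999990C on chromosome 7 had 6654 reads but stood at 0.388, 60 bp from the shared mid-frequency site A32999930G, covered by 6687 pool and 6473 progenitor reads. Of the 32 progenitor members with 300 reads or more, 16 lay on chromosome 7 and 7 on chromosome 6.

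**Figure D2:**
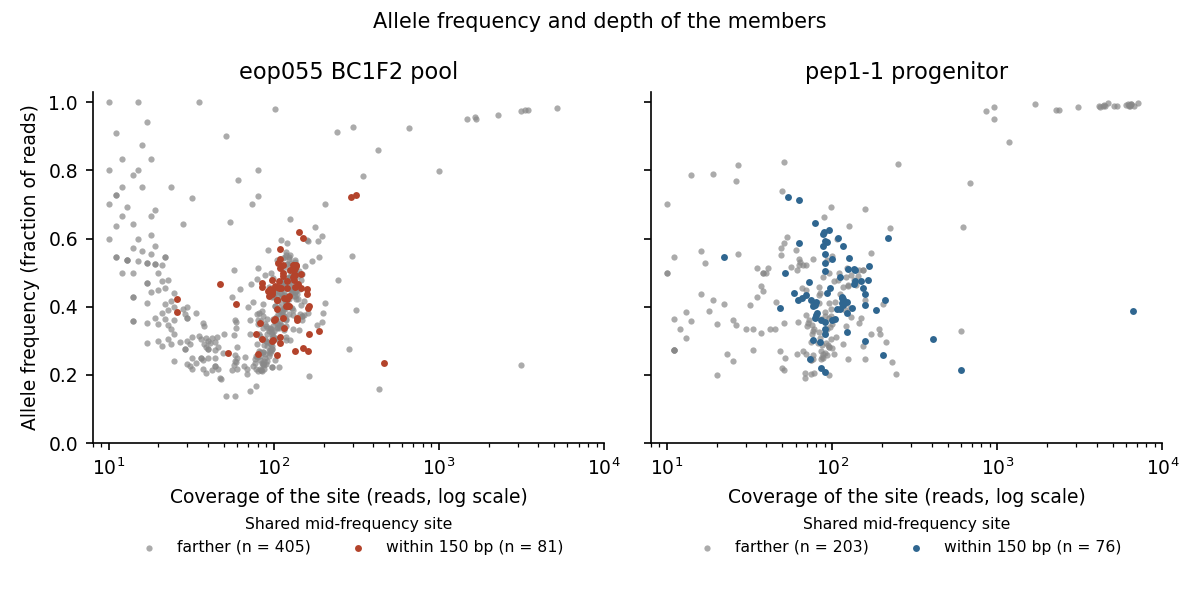
Allele frequency (fraction of reads) against coverage (reads, log scale) of each member, in the pool on the left and the progenitor on the right, coloured where a shared mid-frequency site lies within 150 bp. Coloured points gather near 100 reads at intermediate frequency, and the points above 1000 reads are mostly near 1.

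Members lay near shared mid-frequency sites more often than most other single-library changes. In the pool 81 of 486 members (16.7%, 13.6 to 20.2%) had such a site within 150 bp, against 47 of 1339 mutagen-type sites (3.51%) and 17 of 628 G-to-T or C-to-A sites (2.71%). The odds ratios were 5.49 (3.72 to 8.19 at 95% confidence; two-sided Fisher's exact test, adjusted p = 3.07e-19) and 7.18 (4.14 to 13.1; adjusted exact p = 2.62e-16). In the progenitor 76 of 279 members (27.2%, 22.4 to 32.7%) were that close, against 15 of 633 G-to-T or C-to-A sites (2.37%), an odds ratio of 15.4 (8.53 to 29.5; adjusted exact p = 8.73e-28). The progenitor-only mutagen-type sites lay close as well, 47 of 235, and the odds ratio of members over them was 1.496 (0.971 to 2.32; adjusted exact p = 0.0619). That last comparison passed 0.05 with 1 site per 1 kb (odds ratio 1.71, adjusted exact p = 0.0338) and in 5 other settings, and was farther from 0.05 with a quality minimum of 35 (1.33, adjusted exact p = 0.305), a coverage minimum of 20 (1.32, adjusted exact p = 0.241) and a distance of 50 bp (1.40, adjusted exact p = 0.357). The sizes of the others moved while each still passed 0.05. In the pool the odds ratio over mutagen-type sites was 2.94 with no quality minimum and 11.4 with a coverage maximum of 100, and that over G-to-T or C-to-A sites ranged from 5.02 to 10.9. In the progenitor the odds ratio over G-to-T or C-to-A sites was 7.21 at 50 bp and 93.9 with the coverage maximum.

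Within 1 kb of a shared mid-frequency site lay 170 pool members (34.98%) and 117 progenitor members (41.9%), against 6.20% of pool-only mutagen-type sites and 30.2% of the progenitor-only ones. The median distance was 43704 bp for pool members and 23750 bp for progenitor members. It was 353694 bp for pool-only mutagen-type sites and 177593 bp for progenitor-only ones.

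**Figure D3:**
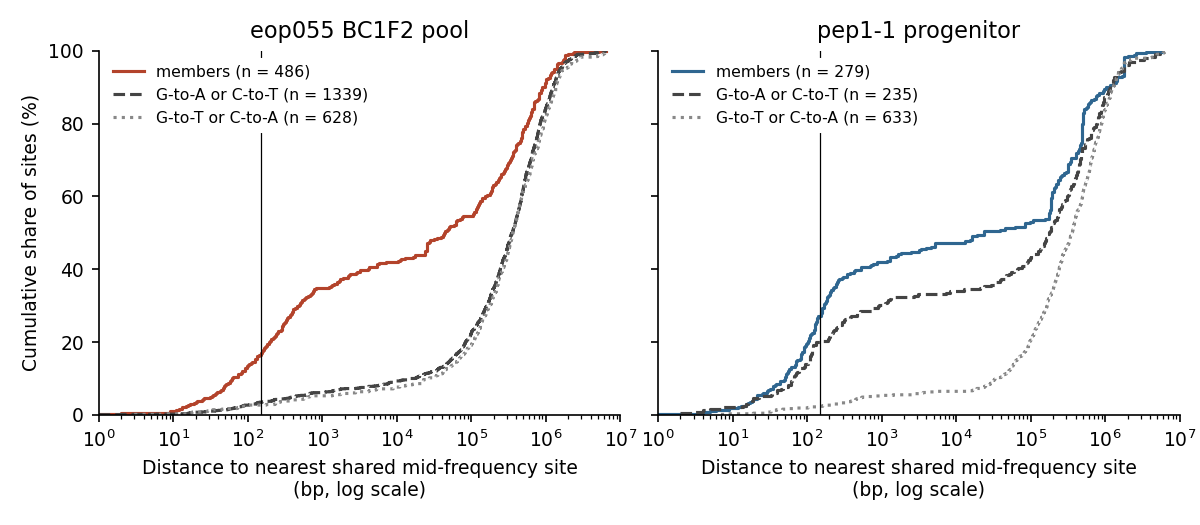
Cumulative share of sites (percent) by distance to the nearest shared mid-frequency site (bp, log scale), for members and the other single-library classes, in the pool on the left and the progenitor on the right, with a line at 150 bp. In the pool the members reach 34.98% by 1 kb while the mutagen-type sites reach 6.20%, and in the progenitor those sites reach 30.2% against 41.9% of members.

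Members close to a shared mid-frequency site had a lower median depth and frequency than that site. The 81 pool members had a median of 114 reads and a frequency of 0.446, and their neighbours had 122 reads and 0.490 in the pool. The member was below its neighbour at 60 of the 81 and within 0.1 of it at 55. The 76 progenitor members had a median of 96.5 reads and 0.425, and their neighbours had 121 reads and 0.489 in the progenitor. There the member was below its neighbour at 54 and within 0.1 of it at 51. The other library covered these neighbours with a median of 115 reads beside pool members and 116.5 beside progenitor members. The neighbours were chosen as listed in both libraries, so being read in both follows from that choice. The choice also held neighbours, but not members, to mid frequency. A member outside that range is therefore below or above its neighbour by definition. The 81 pool members had 60 distinct neighbours and the 76 progenitor members had 52, so the pairs are not independent.

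Beside some pool members the progenitor had few reads where the pool had many. A shared site of any frequency lay within 150 bp of 186 pool members, and at 44 of them (23.7%), in 20 stretches at least 1 kb apart, its coverage in the progenitor was under 0.5 of that in the pool. Of these 44 members, 19 also lay within 150 bp of a shared mid-frequency site. The 44 lay beside 25 distinct shared sites, of 138 beside all 186. The same drop was found beside 14 of 100 pool-only mutagen-type sites with a shared neighbour (14%). Among pool-only G-to-T or C-to-A sites with one it was found at 6 of 30 (20%). Over all 8457 shared sites on the chromosomes it was found at 445 (5.26%). That share counts each shared site 1 time, whereas the shares above count members or other single-library sites, several of which can have the same neighbour. Beside the 167 progenitor members with a shared neighbour, the pool had under 0.5 of the progenitor's coverage at 7 (4.19%), in 3 stretches, against 46 of all shared sites (0.544%). These 7 lay beside 4 distinct shared sites, of 117 beside all 167. The pool had the same drop beside 0 of 84 progenitor-only mutagen-type sites and 1 of 43 G-to-T or C-to-A sites (2.33%). This comparison was chosen after the data were seen and has no test.

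The stretches with the lowest progenitor depth, also chosen after their values were seen, held several members each. On chromosome 5, T15879198C, T15879248C, A15879258G, A15879275T and T15879282A stood at 0.404 to 0.445 with 134 to 146 reads in the pool, and the shared sites between them, T15879218G and T15879231A, had 147 and 134 pool reads but 3 progenitor reads each. On chromosome 4, T14582339G, T14582388A, T14582449A and A14582549T lay beside C14582461A, with 194 reads for the pool and 4 for the progenitor. Also on chromosome 4, G2681295C, T2681309G and A2681495C lay beside T2681367C, with 193 reads for the pool and 2 for the progenitor. All 4 of these shared sites were listed in the progenitor at a frequency of 1.

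Members also lay close to each other. With neighbours at most 150 bp apart joined into chains, 214 of 486 pool members (44.0%) were in 77 chains of 2 or more, and 140 of 279 progenitor members (50.2%) in 50 chains. Chains of 4 or more numbered 14 in the pool and 9 in the progenitor. Keeping 1 site per 1 kb left 321 pool and 174 progenitor members, so many members lay too close together to be counted as independent sites. Chain shares of the other classes are not given here.

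The largest pool chain ran over 407 bp of chromosome 2, from 12674707 to 12675113. Its 10 changes were A12674707G, T12674716A, T12674720A, A12674739G, A12674797T, A12674925G, A12674961G, A12674971G, G12675023C and T12675113C. They stood at 0.313 to 0.478 with 94 to 128 reads in the pool, and the progenitor list had no site within 150 bp of the chain. Chains of 6 followed on chromosome 1 (12828009 to 12828270, median frequency 0.407), chromosome 6 (23831389 to 23831479, 0.544) and chromosome 8 (8160946 to 8161130, 0.407), with median depths of 125, 122 and 107 reads. The progenitor listed no site at the chromosome 6 and 8 chains, and 3 sites with a median of 6 reads at the chromosome 1 chain, against 11 sites in the pool.

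The largest progenitor chain, 9 members on chromosome 7 from 13010066 to 13010371, stood at 0.988 to 0.997 with 5062 to 7143 reads. The pool listed 14 sites there, all of them also listed in the progenitor, with a median of 3903 reads. The next chain, 7 members on chromosome 2 from 17695022 to 17695122, stood at 0.591 to 0.722 with 54 to 93 reads, and the pool listed 7 sites there with a median of 136 reads. A chain of 5 on chromosome 6, from 18636659 to 18636802, stood at 0.986 to 0.991 with 3094 to 4462 reads, and the pool listed none. The 3 other chains of 5, on chromosome 2 from 14132170 to 14132277 and on chromosome 3 from 13035098 to 13035240 and from 13024638 to 13024869, had median frequencies of 0.487, 0.281 and 0.551 with median depths of 115, 94 and 60 reads.

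The chromosomes differed in how many members they held. Pool members numbered 54, 89, 37, 77, 38, 40, 89 and 62 on chromosomes 1 to 8, and progenitor members 22, 63, 39, 45, 10, 28, 45 and 27. As a share of all single-library sites past the minimums they ranged from 12.1% on chromosome 5 to 33.0% on chromosome 2 in the pool, and from 10.99% on chromosome 5 to 34.2% on chromosome 2 in the progenitor. By that share chromosome 2 was the highest and chromosome 5 the lowest in both lists.

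On chromosome 8 the pool-only mutagen-type markers stood well above 0.5, a stretch called the selected block here, and most of the 62 pool members there were below those markers. Their median frequency was 0.366 (range 0.153 to 1), and 47 of them lay below 0.5. The markers within 2.5 Mb of each member had medians from 0.610 to 0.941. Fisher's exact test of each member's reads against the summed reads of those markers, adjusted over all pool-only sites, called 52 of the 62 lower (83.9%), against 50.1% of the 395 pool-only sites of chromosome 8. The call was lower at 36 of 223 markers (16.1%) and at 110 of 110 G-to-T or C-to-A sites. The test counts reads and not plants, so it takes no account of how many plants were pooled.

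On chromosomes 1 to 7, where the local marker medians had a median of 0.465, 131 of 423 members (31.0%) were lower and 38 (8.98%) higher. Of all 2047 pool-only sites tested on these chromosomes 22.2% were lower and 5.03% higher, and of the 2442 on all 8 chromosomes 26.7% were lower and 4.87% higher. Members of chromosome 8 had a median frequency of 0.366 and those of chromosomes 1 to 7 one of 0.402, while the medians of the markers themselves were 0.833 and 0.468.

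**Figure D4:**
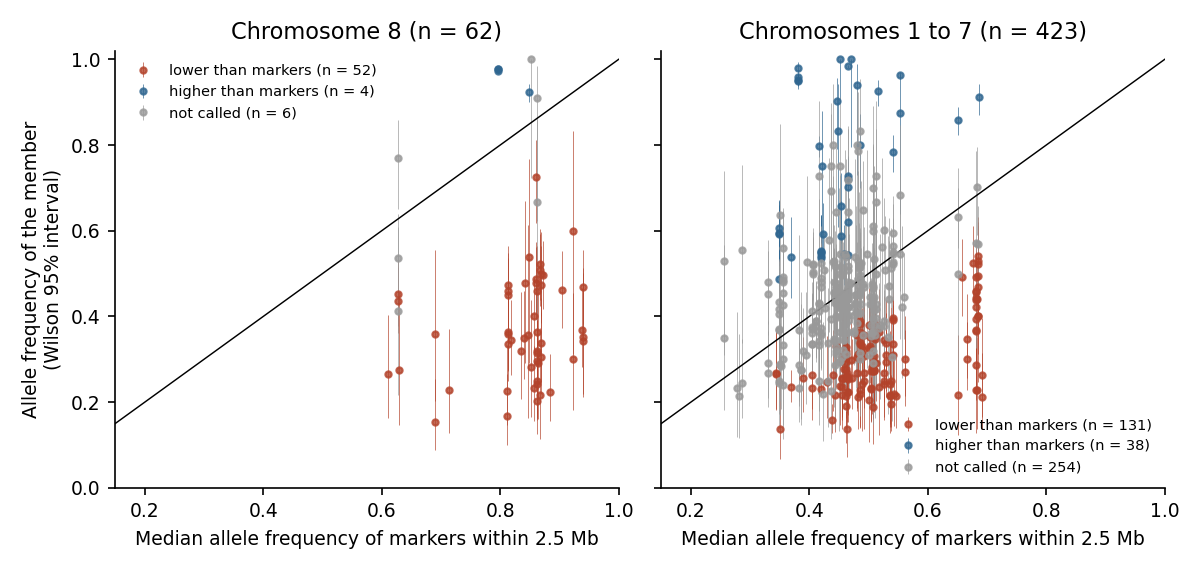
Allele frequency of each pool-only member (fraction of reads, Wilson 95% interval) against the median of the mutagen-type markers within 2.5 Mb, on chromosome 8 to the left and chromosomes 1 to 7 to the right, coloured by call, with a line at equality. On chromosome 8 most members, 52 of 62, sit below the line and are called lower, at 0.153 to 0.725.

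Around the near-fixed stretch of chromosome 8 all 9 members within 2.5 Mb were lower than their markers. Over all of chromosome 8, 83.9% of members, 50.1% of pool-only sites and 110 of 110 G-to-T or C-to-A sites were lower. The share among the other pool-only sites around this stretch is not given here. A41307143G had 38 of 103 reads (0.369, 95% interval 0.282 to 0.465), against a marker median of 0.939 (adjusted exact p = 1.12e-34). A41622574T had 12 of 40 reads, T39288101A 13 of 38, T39288106A 13 of 37 and T44232146A 9 of 31. C39527214G had 58 of 124 reads (0.468), A37715998G 53 of 115 (0.461) and T43428728A 24 of 107 (0.224). T41649856G, with 6 of 10 reads, was the closest to the call threshold (adjusted exact p = 0.0431). The highest upper bound among the 9 intervals was 0.832, and no marker median there was below 0.864.

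Among the members of chromosome 8, 2 followed the block, meaning that the interval held the local marker median and lay wholly above 0.5. A12970667G had 10 of 10 reads (0.722 to 1), beside a marker median of 0.851, and T25854470G had 10 of 11 reads (0.623 to 0.984), beside 0.862. This is 3.23% of the members, against 39.2% of all pool-only sites of chromosome 8, 153 of 223 markers (68.6%) and 0 of 110 G-to-T or C-to-A sites. The markers also supply the median, so their share partly follows from the definition. They make up 153 of the 155 following sites behind the 39.2%, which is therefore no independent background. On chromosomes 1 to 7, by the same definition, 4 of 423 members (0.946%) and 45 of 1110 markers (4.05%) followed. Neither had 20 reads, so with a coverage minimum of 20 the count was 0, and with no quality minimum it was 8 of 155. T25854479G, 9 bp from T25854470G and chosen after its values were seen, had 8 of 12 reads.

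Other high members of chromosome 8 were deep. A46586843C, C46586882G and A46586897G, at 0.974 to 0.978, were higher than their markers (median 0.797, adjusted exact p at most 1.71e-77), as was A20041069C with 607 of 657 reads (0.924 against 0.849, adjusted exact p = 1.53e-10). These were all 4 members called higher on chromosome 8, against 4.05% of its pool-only sites. No member with at most 100 reads was called higher there with markers within 2.5 Mb. With markers within 1 Mb, 5 members were called higher, among them A3078148C with 61 reads (adjusted exact p = 0.0105).

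Mutagen-type markers that lay beside a member had a frequency and depth close to those of the member. This was chosen after the data were seen and is given without a test beyond the calls above. On chromosome 8, 10 markers had a pool member within 150 bp, with a median frequency of 0.463 and 120.5 reads. The 213 other markers had 0.836 and 66 reads. Of the 10, 9 were lower than the surrounding markers and none followed them, against 27 lower and 153 following among the 213. Only markers with at most 100 reads entered the reference sums and medians. Most of the 10 were deeper than that and were left out of the reference, which the 213 largely supplied. Part of this contrast in calls is therefore set by the depth limit. Each of the 10 lay within 0.1 of the frequency of its nearest member, as did 28 of the 213.

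These markers included G39527243A, at 0.438 with 121 reads where the surrounding markers had a median of 0.941, which lay 29 bp from C39527214G at 0.468 with 124 reads. C43428729T and T43428728A were adjacent bases with the same 107 reads and the same frequency of 0.224. G23656241A (0.408, 120 reads) lay 3 bp from A23656244T (0.402, 122 reads), G29441382A (0.5, 146 reads) 6 bp from A29441388G (0.497, 149 reads) and C32003054T (0.489, 133 reads) 3 bp from T32003051C (0.508, 132 reads). On chromosomes 1 to 7, 69 markers had a member within 150 bp, with a median of 117 reads and a frequency of 0.411, against 66 reads and 0.471 for the 1041 others. Of the 69, 62 lay within 0.1 of the frequency of the nearest member, as did 353 of the 1041.

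A small set of members had the depth and quality of the markers. Chosen after the data were seen, these had 30 to 100 reads, a quality of 200 or more, no other member within 150 bp and no shared mid-frequency site within 1000 bp. They numbered 10 in the pool (2.06% of members) and 7 in the progenitor (2.51%). Without the condition on other members, 730 pool-only mutagen-type sites (54.5%) and 1 G-to-T or C-to-A site (0.159%) met the rest. In the progenitor 8 mutagen-type sites (3.40%) and 3 G-to-T or C-to-A sites (0.474%) did. None of the 10 pool members was called different from its local markers, which does not show that they were equal to them. Of all 2442 pool-only sites tested 31.6% were called, as were 46.4% of members and 16.4% of mutagen-type sites. A32020426T on chromosome 2 was called higher by an exact binomial test against the marker median (adjusted p = 0.0163). A3078148C on chromosome 8 had 47 of 61 reads (0.771, 0.651 to 0.858), where the markers had a median of 0.627 (adjusted exact p = 0.0639, and 0.0105 with markers within 1 Mb). T16133911C and A4222786T on chromosome 5 had 28 of 62 and 31 of 75 reads, beside marker medians of 0.457 and 0.416. A24187346T and T31897882A on chromosome 7 had 34 of 73 and 24 of 56 reads, beside 0.508 and 0.488.

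The others in the pool were A32020426T on chromosome 2 (23 of 32 reads), T4083646C on chromosome 4 (35 of 54), T24075287A on chromosome 5 (21 of 59), and T4251809C (20 of 59) and A5696658G (21 of 58) on chromosome 6. In the progenitor A8842098G on chromosome 3 was the highest, with 37 of 50 reads (0.740), and G1059063C on chromosome 5 the lowest, with 25 of 76 (0.329). The other 5 were A9762354G and T26787978G on chromosome 1, A18708734T on chromosome 3, G23372252C on chromosome 5 and T6820760C on chromosome 8, at 0.413 to 0.518 with 35 to 66 reads. The genes that these sites fall in were not analysed here.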

How the data were processed

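Genomic DNA of 1 eop055 BC1F2 pool library and 1 pep1-1 progenitor library was compared through deposited lists of single-base variants, matched to samples by the genotype in the sheet names. Bowtie2, SAMtools and DESeq are named in the submitters' processing notes with no role. The sources used here do not give the genome build, any filters before deposit or the meaning of the sheet labels V3_6 and, for the progenitor, V2. The deposited allele frequency is a fraction of reads, per the file headers. The deposited column headed reads held values that were not whole numbers and was taken as a variant quality score. In the deposited column headed quality the values were whole, and these were taken as a count, the reads carrying the variant base. Coverage was that count over the allele frequency, rounded, and it returned the listed frequency within 5e-05 at all 14923 pool and 14029 progenitor sites. It was not unique at 1 member in each list. Wilson 95% intervals cover counting error only, and PCR duplicates could not be told from separate molecules.

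Shares of sites were set side by side by two-sided Fisher's exact tests. The 4 comparisons of distance were adjusted together by Benjamini-Hochberg. Each pool-only site was also compared with the summed reads of the pool-only mutagen-type (G-to-A or C-to-T) markers within 2.5 Mb by Fisher's exact test, two-sided. Only markers with at most 100 reads entered the sums and at least 5 of them were required. The p-values were adjusted over all 2442 sites tested, with calls at 0.05. The tests were checked on simulated data with reads and sites drawn independently, so that check does not cover sites lying close together. With 1 library per group they compare libraries or positions, with no replicate check, and sites close together are not independent. Alternatives changed the quality and coverage limits, the subtraction, the distances, the thinning of sites, the marker window and the test.

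The members, lists and tests were chosen with earlier results of these data known. The sites named were, in each library, the 5 members with the highest allele frequency, the 5 with the highest coverage, the 3 largest chains with any that tied with the third and the 3 on each side of the quality threshold. On chromosome 8 of the pool they were the members at 0.8 or more and those within 2.5 Mb of the near-fixed stretch from 40000000 to 42000000. Other sites named are said to be chosen after their values were seen. Computation used Python 3.11.15, numpy 2.4.6, pandas 2.3.3, scipy 1.17.1 and matplotlib 3.10.9.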

Additional observations from a re-analysis of the deposited data

How the results depend on the processing

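The alternatives gave 81 values of the main results. Of these, 57 stayed on the same side of 1 and of the threshold or, for counts, within 1.5 times the value reported, 17 counts moved by more and 7 tests newly passed 0.05. None reversed. The 32 named pool sites tested against markers kept their direction in all 128 values, of which 3 newly passed 0.05. With no quality minimum there were 1166 pool and 824 progenitor members (main values 486 and 279), 8 of them following the block, and the transition odds ratio was 0.826. A coverage maximum of 100 left 268 and 171 members, of which 34 were lower and 0 higher than markers on chromosome 8 and 84 lower and 8 higher on chromosomes 1 to 7. Subtracting only sites past the same minimums gave 773 and 525 members. With a quality minimum of 35, 32 members were lower and 2 higher on chromosome 8, 87 were lower on chromosomes 1 to 7, and 512 pool-only sites were called in all, against 772. A coverage minimum of 20 left 0 members following the block, and markers within 1 Mb called 14 members higher on chromosomes 1 to 7, against 38. The odds ratio of progenitor members over mutagen-type sites, 1.496, was 1.76 with no quality minimum, 2.83 with the coverage maximum, 1.71 with 1 site per 1 kb, 1.69 at 500 bp, 1.67 at 1000 bp and 1.80 with shared frequencies from 0.3 to 0.7, and 1.33, 1.32 and 1.40, none past 0.05, with a quality minimum of 35, a coverage minimum of 20 and 50 bp. The limits on quality and coverage changed how many sites were compared, while the distance of 50 bp kept all 514. The coverage maximum (351 sites) and 1 site per 1 kb (382) passed 0.05 with fewer sites than the coverage minimum of 20 (455), which did not. The cause of these differences was not tested. No paired analysis was possible because only 1 library stood for each genotype, and for the same reason no replicate could be left out. Sites with 10 to 29 reads have wide intervals, so following the block is poorly resolved there.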

Other observations

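Changes of the same types on unplaced sequences lay outside the rule. They numbered 96 in the pool, on 58 sequences, with a median frequency of 0.383 and 90 reads, and 60 in the progenitor, on 37 sequences, with 0.612 and 116.5 reads. Of these, 13 in the pool and 17 in the progenitor were near-fixed. At 1 position on chromosome 2, G13986849C was listed for the pool and G13986849T for the progenitor, at 0.580 and 0.736 with 193 reads in each, so this G-C swap was no member although its base was listed in the pool only.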
